A study of Homo sapiens with 9 samples.

Results

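The genes described here are 10 transcription factor and early response genes of human A2780 cells: the FOS family (FOS, FOSB, FOSL1, FOSL2), the JUN family (JUN, JUNB, JUND), EGR1, ATF3 and IER3. They were taken by name, as every gene probe of the array whose annotated RefSeq transcript belongs to one of them, which gave 14 probes and all 10 genes out of 35010 distinct genes or accessions on the array. A2780 is an established ovarian carcinoma cell line. DIG-MSK is an analogue of mithramycin, an antibiotic that sits in the minor groove where DNA is rich in C and G. The 3 groups, with 3 arrays each and 9 in all, were untreated A2780 cells, cells treated with 8 nM DIG-MSK and cells treated with 80 nM DIG-MSK, both for 24 h, and the question was how each concentration changed gene expression. The study describes the replicates as independent biological ones. All cells came from 1 line, and treated cells were collected at 1 time, so neither a short-lived response nor another cell type was sampled.

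AP-1 is a dimer of basic leucine zipper proteins, in which a JUN protein pairs with another JUN, a FOS or an ATF protein and binds short DNA sites in promoters and enhancers. Many of its genes are immediate early genes: growth factors and stress switch them on within minutes, without new protein synthesis, through MAP kinases that act on serum response factor and its ETS partners, and their RNAs decay quickly. In carcinoma cells AP-1 is known for driving proliferation, invasion and stress responses, and its subunits differ, since FOS and JUN activate strongly while JUNB and JUND can restrain growth.

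Levels are given as log2 of the background-corrected intensity minus log2 of the 75th percentile of the same array, so a level of 0 equals that percentile, and a level says nothing about 1 gene against another. A change is the difference of group means on that scale. A gene was said to rise or fall when limma's Benjamini-Hochberg adjusted p over the 21814 genes tested was under 0.05 and the change was at least 1.5-fold. The 80 nM arrays all lay on one slide and the untreated and 8 nM arrays on another, so the effect of 80 nM and that of the slide cannot be told apart, while the comparison of 8 nM with untreated lies within a single slide. The 75th percentile of intensity ran from 831.7 to 1170 over the arrays, between 24835 and 27127 of 42405 gene probes were well above background, and arrays of one group correlated at 0.988 to 0.996. The level of the 10 spike-in probes was 11.86 to 12.05 (log2) on the first slide and 12.12 to 12.20 on the second. Scaling the arrays to these probes took the median over all genes tested of the change at 80 nM from 0.08 to -0.20, and the share of lower genes among those called from 46.2% to 73.3%. Of 14 ovarian carcinoma markers, 7 were well above background on all 9 arrays (EPCAM, KRT7, KRT8, KRT18, KRT19, CDH2 and VIM), and 7 were not (PAX8, WT1, MUC16, CDH1, MSLN, CLDN3 and CLDN4). Of markers of other cells, 3 of 7 for lymphoid and myeloid cells, 1 of 4 for endothelium, 4 of 5 for fibroblasts and 1 of 3 for hepatocytes and red cells were above background on all 9. The summed intensity of the ovarian carcinoma list was 180498 to 207827 in untreated cells, 158503 to 209831 at 8 nM and 230357 to 262300 at 80 nM. That of the fibroblast list was 7705 to 10991, 9216 to 11271 and 11585 to 12543 in the same groups, and that of the lymphoid and myeloid list 197 to 330, 178 to 295 and 316 to 376. The endothelial list summed to 114 to 144, 96.1 to 146 and 134 to 173, and the hepatocyte and red cell list to 62.5 to 88.2, 73.1 to 98.2 and 100.5 to 115. All these sums used intensity before scaling between arrays, so array brightness enters them. The part of these lists in the results was not tested. In bulk RNA a smaller number of expressing cells and less RNA per cell cannot be told apart.

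At 8 nM, FOSL1 and IER3 rose and none of the 9 tested genes fell. At 80 nM, FOS, FOSL1 and JUNB rose, and EGR1 and ATF3 fell. FOSB, FOSL2 and JUND passed the test at neither concentration, and JUN was not measured above background. In each direction the numbers at 8 nM, 2 higher and 0 lower of 9, stood beside 3.71% of all genes tested called higher and 1.34% called lower. At an unadjusted p under 0.05 with no fold limit, limma put 3 genes higher and 1 lower, and no share over all genes was counted there. With the 1.5-fold limit added, 2 were higher and 1 lower. Of all 21814 genes tested, 1522 were then called, 39.1% of them lower. The numbers at 80 nM, 3 higher and 2 lower of 9, stood beside 18.4% and 15.8%. Between 80 nM and 8 nM, 2 were higher (FOS, JUNB) and 3 lower (EGR1, ATF3, IER3), beside 18.9% and 13.7%. The median change of the 9 genes was 0.22 at 8 nM, -0.05 at 80 nM and -0.35 between 80 nM and 8 nM, where all genes tested had medians of -0.06, 0.08 and 0.11. The 2 comparisons with untreated cells share the untreated arrays. With 9 genes, these counts are a description of the members and were not set against chance.

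**Figure D1:**
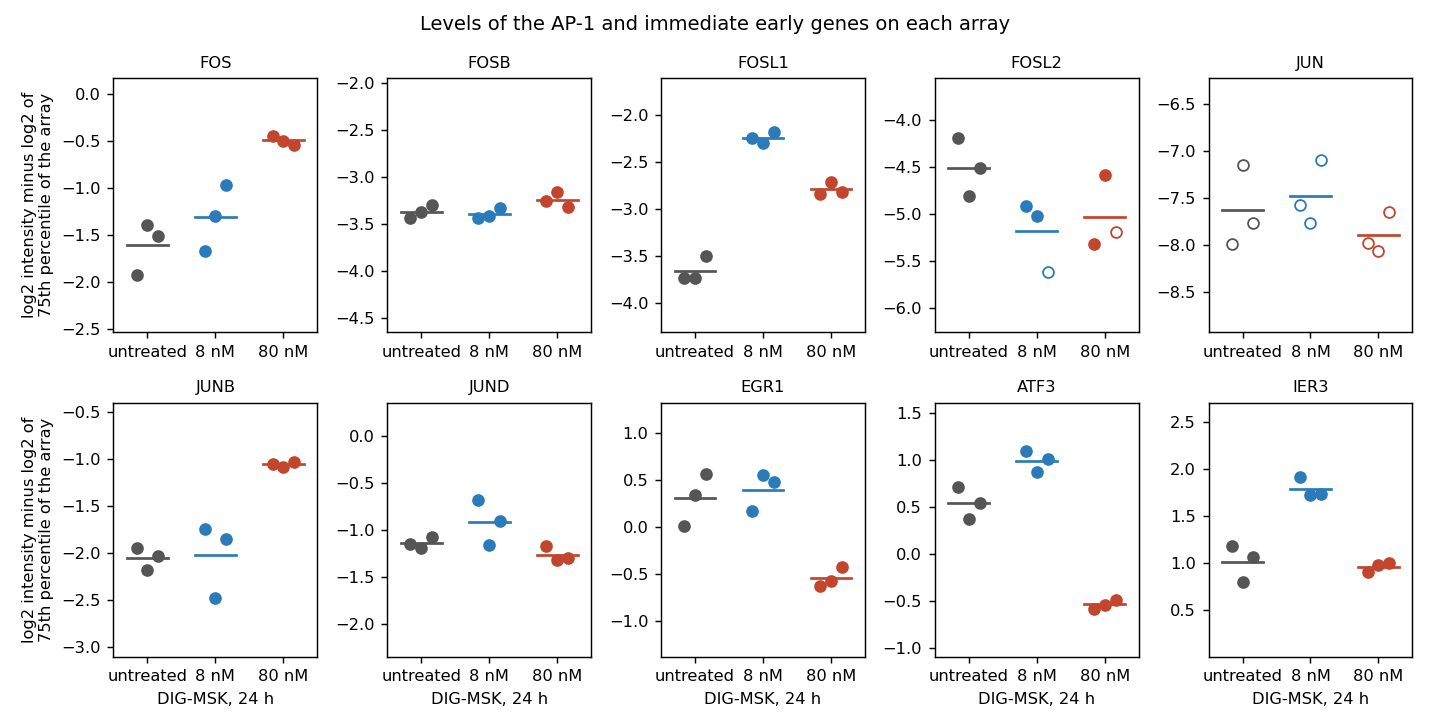
Each panel gives 1 gene on the 9 arrays: the vertical axis is the log2 intensity minus the log2 of the array's 75th percentile, spanning the same range in every panel, the horizontal axis is the concentration of DIG-MSK, points are arrays, lines are group means, and open points were not well above background. FOS and JUNB are highest at 80 nM, FOSL1 and IER3 at 8 nM, EGR1 and ATF3 are lowest at 80 nM, and JUN has open points on all 9 arrays.

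The promoters of 3 genes that moved at 80 nM and of JUND, which did not pass the test, are shown because the compound binds C/G-rich DNA. They are the 250 bases before the start of transcription in RefSeq, on assembly GRCh38.p14, written 5′ to 3′ on the strand of the gene. Capitals mark the matches of 7 motifs on either strand: the AP-1 site TGANTCA, the cAMP response element TGACGTCA, the ATF core site TGACG, the GC box GGGCGG, which Sp1 proteins bind, the EGR site GCGNGGGCG, the CArG box of serum response factor, and the TATA box TATAAA, with N for any base. The core site lies inside the cAMP response element, so their matches overlap, and in the JUN window a core site and a GC box share a base. FOS lies at chr14:75278578-75278827 (plus strand), JUNB at chr19:12791236-12791485 (plus), EGR1 at chr5:138465229-138465478 (plus) and JUND at chr19:18281623-18281872 (minus).
FOS: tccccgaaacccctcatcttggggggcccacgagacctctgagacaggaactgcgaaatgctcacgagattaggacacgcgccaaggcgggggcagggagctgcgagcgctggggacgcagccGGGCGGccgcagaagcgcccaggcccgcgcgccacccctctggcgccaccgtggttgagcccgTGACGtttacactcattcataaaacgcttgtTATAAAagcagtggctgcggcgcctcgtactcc
JUNB: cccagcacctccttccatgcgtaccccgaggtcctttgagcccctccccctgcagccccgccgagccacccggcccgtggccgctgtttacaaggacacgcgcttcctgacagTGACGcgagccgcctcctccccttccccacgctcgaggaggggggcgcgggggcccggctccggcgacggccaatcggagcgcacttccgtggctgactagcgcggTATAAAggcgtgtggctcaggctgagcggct
EGR1: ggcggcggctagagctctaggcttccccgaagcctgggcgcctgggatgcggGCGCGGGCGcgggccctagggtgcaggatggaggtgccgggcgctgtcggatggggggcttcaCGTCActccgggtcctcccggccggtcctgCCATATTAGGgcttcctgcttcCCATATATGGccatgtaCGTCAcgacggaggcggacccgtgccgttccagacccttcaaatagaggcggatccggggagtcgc
JUND: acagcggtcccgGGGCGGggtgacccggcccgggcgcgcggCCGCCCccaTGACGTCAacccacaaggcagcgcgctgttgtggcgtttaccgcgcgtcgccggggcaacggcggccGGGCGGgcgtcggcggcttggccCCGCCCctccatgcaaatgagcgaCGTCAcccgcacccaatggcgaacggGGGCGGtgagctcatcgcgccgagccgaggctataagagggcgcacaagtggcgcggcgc

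Windows were at hand for 8 of the 10 genes, with 2 starts for ATF3, and not for FOSL1 and IER3. They were taken by gene name and not matched to the transcripts of the probes, so other starts of a gene may be missing. A GC box was found in those of FOS (1), FOSB (2), FOSL2 (1), JUN (2), JUND (5) and the first ATF3 start (1), and 42.6% of all 35116 promoter windows hold one. The windows of JUNB and EGR1 hold no GC box in these letters. JUND has the most GC boxes and the highest G+C content of the windows (74.8%). Whether GC boxes or G+C content bear on the changes was not tested. G+C content was 64.8% for FOS, 70.8% for JUNB, 68.4% for EGR1, and 49.2% and 44.8% for the ATF3 starts, beside a median of 58.0% over all windows. EGR1 holds 2 CArG boxes, at 105 to 96 and 83 to 74 bases before its start, in a set where 1.16% of all windows hold any. It also holds an EGR site, a motif of its own protein, which 8.41% of windows hold. A TATA box at 33 to 28 bases (FOS), 30 to 25 (FOSB) and 31 to 26 (JUNB) before the start was found in these 3 windows, and the second ATF3 window holds one at 230 to 225. A TATA box anywhere in the window occurs in 10.7% of all windows. An ATF core site occurs in every member window but the 2 at hand for ATF3, and in 21.2% of all windows. JUND has the single cAMP response element (1.65% of windows), and the AP-1 site (6.57% of windows) matched none of the 9. A match is a description of letters and not a bound site, and these windows do not reach enhancers or sites farther upstream.

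**Figure D2:**
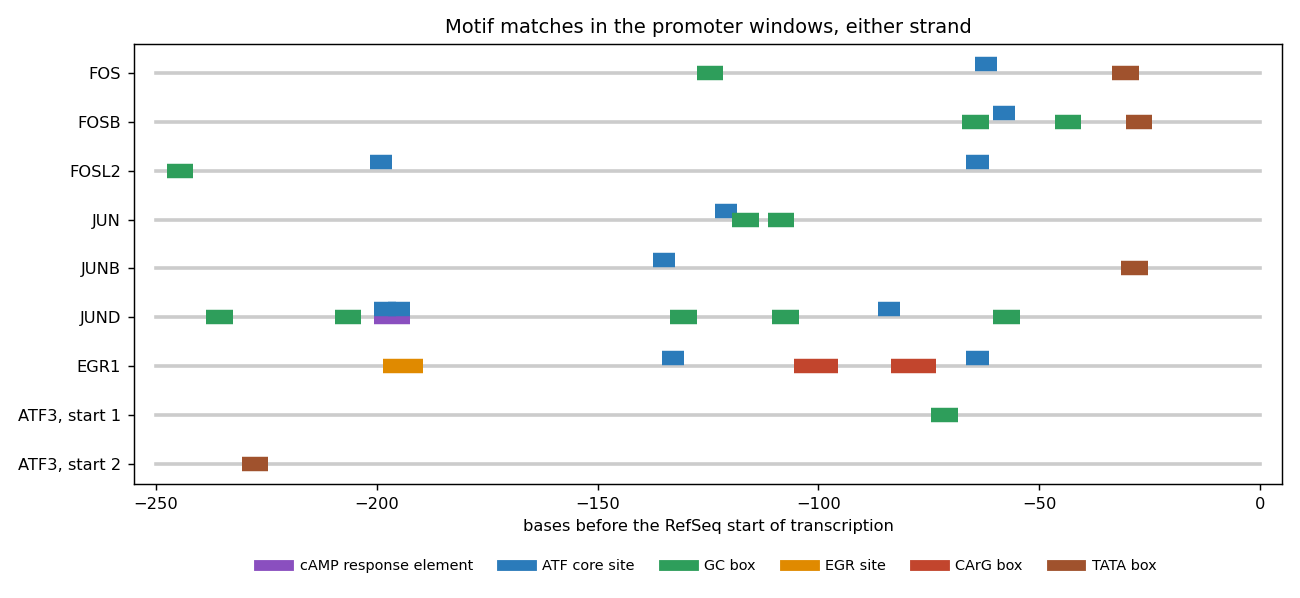
Each grey line is the 250 bases before a RefSeq start, with the horizontal axis in bases before it, and coloured blocks are motif matches on either strand (ATF core sites are drawn slightly raised). GC boxes crowd the JUND window, with 5, and are missing from JUNB and EGR1, and TATA boxes of FOS, FOSB and JUNB lie close to the start.

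FOS encodes c-Fos, which cannot bind DNA without a JUN partner. Its levels were -1.93, -1.39 and -1.51 on the untreated arrays, -1.67, -1.30 and -0.97 at 8 nM, and -0.45, -0.50 and -0.54 at 80 nM. All 80 nM arrays lay above every other array, while the untreated and 8 nM arrays overlapped. FOS rose by 1.11 at 80 nM (SE 0.19, 95% CI 0.68 to 1.55, adjusted p = 0.00128), a 2.16-fold increase. At 8 nM the change was 0.30 (95% CI -0.14 to 0.73, adjusted p = 0.323), and 80 nM exceeded 8 nM by 0.82 (adjusted p = 0.00652). Scaling to the spike-in probes left FOS called at 80 nM against untreated (0.84, adjusted p = 0.0488) but not against 8 nM (0.46, adjusted p = 0.273).

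FOSL1 encodes FRA1, a FOS relative that lacks the strong activation domain of c-Fos and is known for its part in invasive carcinoma cells. Its levels were -3.74, -3.73 and -3.51 untreated, -2.25, -2.30 and -2.19 at 8 nM, and -2.84, -2.72 and -2.82 at 80 nM. The groups did not overlap, and the order was untreated, 80 nM and 8 nM from lowest to highest. FOSL1 rose by 1.41 at 8 nM (SE 0.08, 95% CI 1.22 to 1.61, adjusted p = 6.55e-05), a 2.67-fold increase, the largest change at 8 nM among the 9 tested members. At 80 nM it rose by 0.87 (95% CI 0.67 to 1.06, adjusted p = 5.78e-05), or 1.82-fold. The level at 80 nM was below that at 8 nM by a change of -0.55 (adjusted p = 0.000792), which is short of 1.5-fold. The rise at 80 nM was no longer called with normexp background correction, where the change stayed above 0 but under the fold limit (0.57), or with spike-in scaling (0.59, adjusted p = 0.0768).

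FOSB, whose short splice form accumulates under lasting stimulation in neurons, changed little. Its levels were -3.43 to -3.30 untreated, -3.44 to -3.33 at 8 nM and -3.32 to -3.16 at 80 nM. The changes were -0.03 (95% CI -0.20 to 0.14, adjusted p = 0.822) and 0.12 (-0.04 to 0.29, adjusted p = 0.178), intervals that lie within 1.5-fold. FOSL2, which encodes FRA2, was dim. Its levels were -4.20, -4.81 and -4.51 untreated, -4.92, -5.02 and -5.62 at 8 nM, and -5.32, -4.59 and -5.19 at 80 nM. It was well above background on 3 untreated arrays but on 2 of 3 at each concentration, so it entered the test through the untreated group, where it was highest. Its changes were -0.68 (95% CI -1.27 to -0.09, adjusted p = 0.118) and -0.53 (-1.12 to 0.06, adjusted p = 0.111). Without the second 80 nM array, whose level was the highest of that group, FOSL2 was called lower at 80 nM (-0.75), as it was with spike-in scaling (-0.81, adjusted p = 0.023). With normexp background correction the changes shrank to -0.20 at 8 nM and -0.08 at 80 nM (adjusted p = 0.39 and 0.661), and with the authors' log2 values to -0.24 and -0.21 (adjusted p = 0.194 and 0.162).

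JUN, the partner that gives AP-1 most of its DNA binding, had 1 probe, annotated to NM_002228, which was not well above background on any of the 9 arrays. Its levels were -7.99 to -7.15 untreated, -7.76 to -7.09 at 8 nM and -8.06 to -7.65 at 80 nM. No fold change is given, because all 3 groups are bounded by the background. This says that the probe gave no measurable signal and not how much JUN RNA there was.

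JUNB, a JUN protein that activates less strongly than c-Jun, had levels of -1.94, -2.18 and -2.03 untreated, -1.75, -2.47 and -1.85 at 8 nM, and -1.05, -1.08 and -1.03 at 80 nM. The 80 nM arrays were above all others, and the 8 nM arrays spread on both sides of the untreated ones. JUNB rose by 1.00 at 80 nM (SE 0.18, 95% CI 0.60 to 1.40, adjusted p = 0.00145), or 2.00-fold, and 80 nM exceeded 8 nM by 0.97 (adjusted p = 0.00179). At 8 nM the change was 0.03 (95% CI -0.37 to 0.43, adjusted p = 0.921). With spike-in scaling both calls were lost, at 0.72 (adjusted p = 0.0857) and 0.61 (adjusted p = 0.147). JUND, a JUN protein expressed in most resting cells, had levels of -1.15, -1.19 and -1.08 untreated, -0.68, -1.17 and -0.90 at 8 nM, and -1.17, -1.32 and -1.30 at 80 nM. The untreated arrays overlapped with both treated groups. Its changes were 0.22 (95% CI -0.05 to 0.50, adjusted p = 0.238) and -0.13 (-0.40 to 0.15, adjusted p = 0.391). JUND at 80 nM was below 8 nM by a change of -0.35 (adjusted p = 0.0342), short of 1.5-fold.

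EGR1, a zinc finger factor that binds G-rich sites and is induced through serum response factor, had levels of 0.01, 0.34 and 0.56 untreated, 0.16, 0.55 and 0.47 at 8 nM, and -0.63, -0.58 and -0.43 at 80 nM. Untreated and 8 nM arrays overlapped, and each 80 nM array lay below all of them. The change at 8 nM was 0.09 (95% CI -0.27 to 0.45, adjusted p = 0.72). EGR1 fell by 0.85 at 80 nM (SE 0.16, 95% CI -1.21 to -0.49, adjusted p = 0.00185), to 0.555 of the untreated level, and was lower than at 8 nM by a change of -0.94 (adjusted p = 0.00114). Its fall was called under each alternative that was run, with changes from -1.13 to -0.72. FOS and EGR1, both classical serum response genes, thus moved in opposite directions at 80 nM.

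ATF3, a stress-induced leucine zipper protein that pairs with JUN proteins and often represses, was measured by 4 probes. On the brightest, annotated to NM_001040619, levels were 0.72, 0.38 and 0.55 untreated, 1.10, 0.88 and 1.02 at 8 nM, and -0.58, -0.54 and -0.49 at 80 nM. The groups did not overlap, with 8 nM highest and 80 nM lowest. At 8 nM the change was 0.45 (95% CI 0.22 to 0.68, adjusted p = 0.0223), or 1.37-fold, under the fold limit. ATF3 fell by 1.08 at 80 nM (SE 0.10, 95% CI -1.31 to -0.85, adjusted p = 4.54e-05), a 2.11-fold decrease, and 80 nM was 2.89-fold lower than 8 nM (change -1.53, adjusted p = 6.83e-06) on this probe.

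The other ATF3 probes did not all follow. The probe annotated to NM_001674, another ATF3 transcript, gave -1.04 at 80 nM (adjusted p = 0.00048), close to the brightest probe, but -0.10 at 8 nM (adjusted p = 0.682). Of the remaining NM_001040619 probes, one was flat, at -0.07 and -0.04, and the dimmest gave 0.32 at 8 nM and -0.49 at 80 nM (adjusted p = 0.315 and 0.0638). A fall at 80 nM was thus called on 2 of 4 probes, and a rise at 8 nM on none. From 8 nM to 80 nM these 3 probes changed by -0.94, 0.03 and -0.81. Where probes were averaged, the changes were 0.15 at 8 nM, -0.66 at 80 nM and -0.81 between them.

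**Figure D3:**
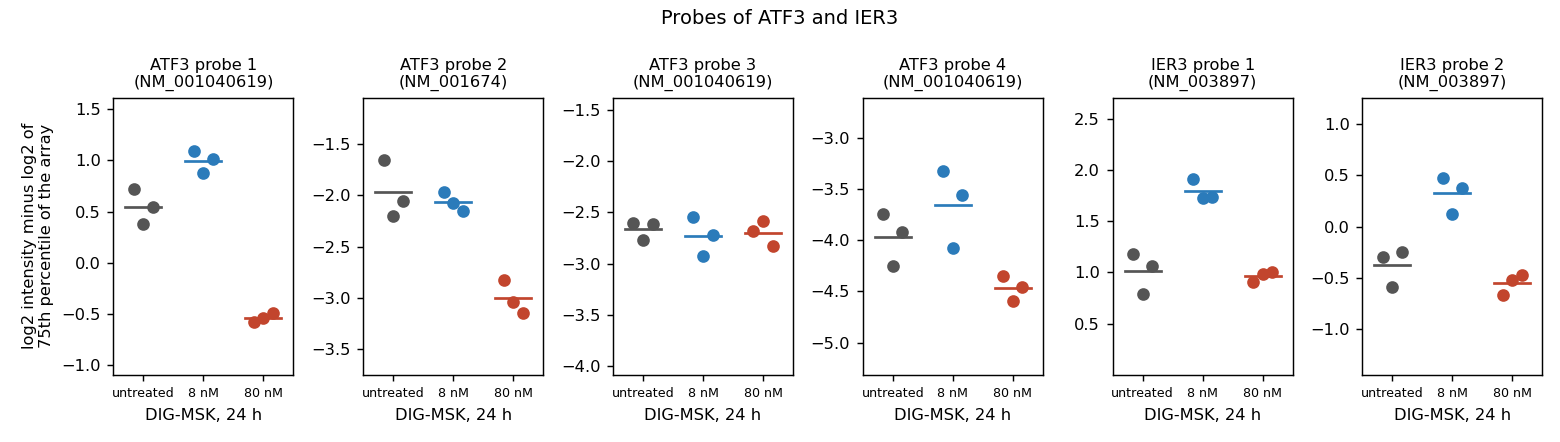
Each panel gives 1 probe of ATF3 or IER3 on the 9 arrays, with the log2 intensity minus the log2 of the array's 75th percentile on the vertical axis and the concentration on the horizontal one; points are arrays and lines are group means. ATF3 probes 1, 2 and 4 are lowest at 80 nM, though probe 4 did not pass the test against untreated. Probe 3 is flat across the groups, and both IER3 probes are highest at 8 nM.

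IER3, an early response gene whose protein modulates cell death and MAP kinase signalling, had levels of 1.18, 0.79 and 1.06 untreated, 1.91, 1.72 and 1.74 at 8 nM, and 0.90, 0.98 and 1.00 at 80 nM. The 8 nM arrays were above all others, while untreated and 80 nM arrays overlapped. IER3 rose by 0.78 at 8 nM (SE 0.11, 95% CI 0.53 to 1.03, adjusted p = 0.00312), or 1.72-fold. At 80 nM the change from untreated was -0.05 (95% CI -0.30 to 0.20, adjusted p = 0.709), and the level was below that at 8 nM by a change of -0.83 (adjusted p = 0.000309). A second probe gave 0.70 at 8 nM and -0.17 at 80 nM (adjusted p = 0.00996 and 0.267). With spike-in scaling the change at 8 nM was 0.86 with an adjusted p of 0.0862, and the call was lost.

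**Figure D4:**
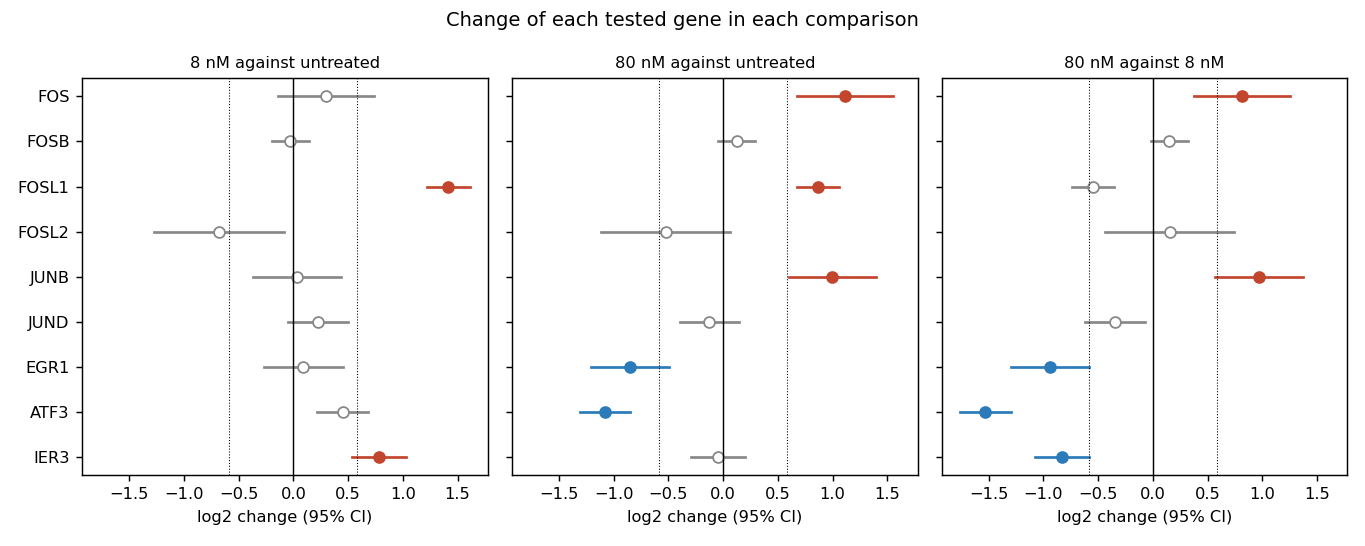
Points are log2 changes of the 9 tested genes in the 3 comparisons, lines are 95% confidence intervals of limma, dotted lines mark 1.5-fold, and filled points passed the test (red higher, blue lower). At 8 nM only FOSL1 and IER3 are filled, and at 80 nM FOS, FOSL1, JUNB, EGR1 and ATF3 are.

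Among 19 tested genes of other leucine zipper proteins that can pair with or resemble AP-1, none was called at 8 nM by limma, with 1 higher and 1 lower at an unadjusted p under 0.05. At 80 nM, 2 rose (ATF5 and CREB3) and 3 fell (BATF2, BATF3 and MAFF), and the median was 0.03. With normexp background correction 2 rose and 1 fell, and with spike-in scaling 1 rose and 4 fell. Over all genes tested, 3.71% rose and 1.34% fell at 8 nM, and 18.4% rose and 15.8% fell at 80 nM. These shares also stand beside the lists below. Of all genes called at 80 nM, 46.2% were lower. That share was 49% with normexp, 73.3% with spike-in scaling and 44.2% with genes above background on all 9 arrays. No share over all genes was counted for an unadjusted p alone, here or in the lists below. BATF2, an interferon-inducible partner of JUN, had levels of 1.18, 0.08 and 0.41 untreated and -3.06, -3.12 and -3.12 at 80 nM. It fell by 3.66 (SE 0.28, adjusted p = 1.34e-05). ATF5, a stress-responsive factor, rose by 1.00 (SE 0.09, adjusted p = 3.64e-05), and BATF3 fell by 0.97 (SE 0.20, adjusted p = 0.00328).

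Among 36 tested genes of other immediate early responses, 8 rose at 8 nM and 0 fell, where an unadjusted p under 0.05 gave 14 and 2. At 80 nM, 14 rose and 7 fell. The medians were 0.12 and 0.37. Of the 7 that fell, EGR2, CCN2 and CITED2 were not well above background on all 80 nM arrays, and they entered the test through the groups where they were high. Among genes well above background on all 9 arrays, 14 rose and 4 fell. ARC, a synaptic regulator known as an early gene, had levels of -4.23, -4.11 and -4.37 untreated, -1.82, -2.28 and -2.05 at 8 nM and -3.70, -3.58 and -3.61 at 80 nM. ARC rose by 2.19 at 8 nM (SE 0.12, adjusted p = 5.1e-05) and by 0.61 at 80 nM (adjusted p = 0.00289), so that, as for FOSL1, the level was highest at 8 nM.
BTG2, an antiproliferative p53 target, rose at both concentrations, by 1.86 (SE 0.10, adjusted p = 5.1e-05) and 2.22 (adjusted p = 8.48e-07). CCN1, a matricellular protein, rose by 0.80 and then 1.98 (adjusted p = 0.00475 and 4.26e-06), and GADD45B, a stress sensor, by 0.74 and 1.54 (adjusted p = 0.00338 and 7.51e-06). CCN2, a relative of CCN1, took another course. Its levels were -4.98, -4.68 and -4.76 untreated, -3.04, -3.42 and -2.85 at 8 nM, and not well above background on any array at 80 nM. CCN2 rose by 1.70 at 8 nM (SE 0.17, adjusted p = 0.000672). At 80 nM CCN2 was 2.15-fold lower when raised to the level of the dimmest probes above background, a floor that was not itself tested. This floor is not a strict bound, since brighter probes could also fail the background check, as FOSL2 did at -5.19 on an 80 nM array. EGR2, a relative of EGR1 chosen after its values were seen, changed by 0.34 at 8 nM (adjusted p = 0.0378, under the fold limit). At 80 nM EGR2 too was not well above background, and was 2.62-fold lower by the same untested floor. With spike-in scaling 4 of the 36 genes rose at 8 nM, and 9 rose and 8 fell at 80 nM.

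Among 36 tested upstream kinases and factors, none was called at 8 nM by limma, with 4 higher and 10 lower at an unadjusted p under 0.05, while at 80 nM 4 rose and 6 fell (median -0.04). One of the 6, RPS6KA2, a kinase downstream of ERK, was above background on 3 untreated arrays and on 0 at 80 nM, and with genes above background on all 9 arrays 4 rose and 5 fell. With spike-in scaling 1 rose and 8 fell. MAP2K6, a kinase of p38, had levels of 1.14, 1.11 and 1.08 untreated and -1.29, -1.15 and -1.18 at 80 nM. It fell by 2.31 (SE 0.07, adjusted p = 8.73e-08). MAP3K4 fell by 1.73 (adjusted p = 1.27e-05), although a second probe changed by -0.33, and MAP3K1 fell by 1.19 (adjusted p = 5.01e-05). SRF, the factor that binds CArG boxes, changed by -0.05 and 0.26 (adjusted p = 0.747 and 0.0492), under the fold limit at both concentrations.

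Among 18 tested genes described as AP-1 targets, 1 rose at 8 nM (LIF) and 0 fell, where an unadjusted p under 0.05 gave 6 and 1. At 80 nM, 6 rose and 5 fell, with a median of 0.11. The 6 include CD44, a hyaluronan receptor, which was above background on 1 untreated array and on 3 at 80 nM and so entered through the group where it was high. Among genes above background on all 9 arrays, 5 rose and 5 fell, and with spike-in scaling 4 rose and 6 fell. LIF, a cytokine, had levels of -1.36, -1.32 and -0.87 untreated, 0.15, 0.07 and 0.01 at 8 nM, and 0.75, 0.79 and 0.71 at 80 nM. It rose by 1.26 (SE 0.13, adjusted p = 0.000744) and 1.93 (adjusted p = 6.45e-06). MMP3, a matrix protease with an AP-1 site in its promoter, went from 1.63, 1.37 and 1.52 to 4.51, 4.46 and 4.50 at 80 nM, a rise of 2.98 (SE 0.09, adjusted p = 1.02e-07), and IL11, a cytokine, rose by 1.81 (adjusted p = 1.68e-05). MMP1, another such protease, HMOX1, SPP1, EMP1 and DCN fell at 80 nM, so the list did not move in one direction. Of the 4 Sp1 family genes, which encode factors that bind GC boxes, none was called in either comparison with untreated cells. SP2 at 8 nM had a change of 0.35 with an adjusted p of 0.0355, under the fold limit. It was the single gene of the 4 with an unadjusted p under 0.05 at 8 nM, and at 80 nM there were 0. SP1 changed by 0.04 and -0.16, and SP3 by -0.07 and 0.00.

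**Figure D5:**
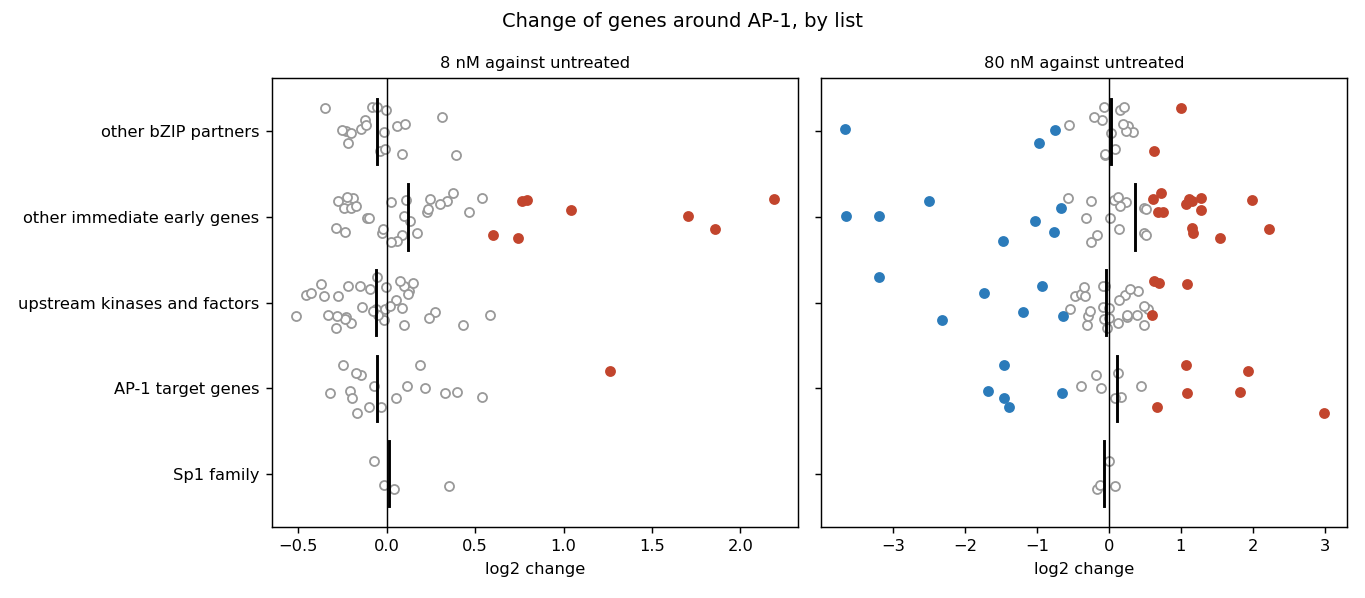
Each point is the log2 change of 1 gene of a list at 8 nM (left) or 80 nM (right) against untreated, with separate horizontal scales; red points rose, blue points fell, open points did not pass the test, and bars are list medians, from -0.06 to 0.12 at 8 nM and from -0.06 to 0.37 at 80 nM. Changes below background at 80 nM are plotted as measured, with no floor applied.

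The genes whose levels over the 9 arrays were most like those of a member were picked by Pearson's r among 13979 tested genes with a symbol, and are a description of 9 points in 3 groups. FOS was most like FBXO8 (r = 0.979) and SCYL2 (0.976), JUNB like UGCG (0.993) and SELENOP (0.988), and FOSL1 like ABCG4 (0.999) and BBS4 (0.991). EGR1 was most like AGTPBP1 (0.991) and SYT12 (0.985), ATF3 like TRIM43 (0.998) and PRAMEF12 (0.997), and IER3 like S100A3 (0.992) and ANKRD65 (0.979). No member was among the 2 genes most like another.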

How the data were processed

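RNA of 9 A2780 samples was hybridized to 1-colour Agilent arrays with Cy3, and samples were grouped by their labels. The authors extracted spot intensity with Agilent Feature Extraction 10.7.3.1, and the deposited processed intensity is background-corrected but not scaled between arrays. The study also names lowess, which was not applied here, and the kit it names for labeling differs from that in the labels. The authors' deposited table of log2 values followed the log2 median signal (r of at least 0.9986) with near-equal medians (6.602 to 6.609), and served as an alternative only.

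Each log2 intensity was scaled to the 75th percentile of gene spots on its array. Control and outlier spots were left out, spots of a probe were averaged, and no gene spot was saturated (0). The filter kept 26434 probes, those whose 3 arrays were all well above background in some group, and the brightest kept probe on average stood for its gene. RefSeq on GRCh38.p14 gave symbols to 25715 of the 27245 probes that carry one of its accessions. All adjusted p-values are from limma 3.58.1 (lmFit, eBayes) in R 4.3.3, with Benjamini-Hochberg adjustment. Unless an alternative is named, the fit used the 9 arrays without a replicate block. The procedure was tested on simulated data. The number of arrays limits the precision.

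The members and lists were chosen with earlier results of these data known. Genes named beyond the members were, per list and comparison with untreated cells, the 3 with the largest change among those called, measured above background on every array compared and with groups apart, and the 2 most like each called member; others are named where a count was small. Deviations of same-numbered untreated and 8 nM arrays correlated at 0.11, 0.10 and 0.16. Replicate numbers alone do not state a pairing, and arrays with different numbers were not compared, so pairing is not settled. A fit with the replicate block on these arrays was added after seeing the data. Alternatives were background correction (normexp, offset 50, on the median signal), scaling, filters, probe choice, thresholds, the fit and leaving out each array. No column of another sample was present (0).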

Additional observations from a re-analysis of the deposited data

How the results depend on the processing

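The members called numbered 2 at 8 nM, 5 at 80 nM and 5 between them, and stayed within 1.5 times of this under every alternative run except scaling to the spike-in probes, which left 1 at 8 nM (FOSL1). With that scaling 4 were called at 80 nM (1 higher, 3 lower) and 4 between 80 nM and 8 nM (0 higher, 4 lower). Over all genes tested, the share of lower genes among those called went from 26.5% to 6.78% at 8 nM. Between 80 nM and 8 nM that share went from 42.1% to 79.8%. The cause was not tested. Over all genes, 1101 were called at 8 nM and 7448 at 80 nM, against 611 and 4680 with normexp, 369 and 6704 with spike-in scaling, and 2971 and 12860 with no fold limit. Of 627 alternative values of member changes, 600 kept direction and call. Several alternatives, such as those of threshold or fit, leave the change itself as it is, so its direction could not differ. Uncalled changes that stayed uncalled count as kept. The changes that turned direction were all uncalled. With spike-in scaling FOSB gave 0.0528 at 8 nM, -0.15 at 80 nM and -0.21 between them, and FOSL2 -0.21 between 80 nM and 8 nM. JUNB at 8 nM gave -0.0063 with normexp and -0.0189 with the authors' log2 values. Leaving out 1 array gave -0.0606 to 0.0074 for FOSB, -0.11 to 0.26 for JUNB and -0.0574 to 0.22 for EGR1 at 8 nM, -0.16 to 0.0329 for IER3 at 80 nM, and -0.0686 to 0.30 for FOSL2 between 80 nM and 8 nM. With the replicate block, the counts were 2, 5 and 5, the block on untreated and 8 nM arrays alone gave 2, and no call of a member changed. On those arrays alone, limma with the block gave larger adjusted p-values at 8 nM than the main fit. They were 0.0118 for FOSL1, 0.0356 for IER3 and 0.0724 for ATF3, which was then no longer under 0.05. Without the block, limma on the same arrays alone gave 0.0014, 0.0199 and 0.0724, so ATF3 was not under 0.05 there either. Same-numbered arrays of 80 nM and the other groups correlated at -0.1166 to 0.0193 in their deviations, which does not settle whether the numbers pair them. Slide as a block could not be run for 80 nM, which fills a slide of its own. Genes near background (JUN, FOSL2, and EGR2 and CCN2 at 80 nM) are limited by signal over background.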
